A study of Mus musculus with 8 samples.

Results

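The enzymes and carriers of protein N-glycosylation were followed in hepatocytes isolated from mice without the cannabinoid 1 receptor (CB1R, gene Cnr1) in hepatocytes. The pathway was taken as a list of 45 genes, chosen by name for their part in assembling the dolichol-linked glycan, transferring it to protein, or trimming it, and not by their values. Earlier results of these data were known when the list was made. All 45 had at least 1 probe on the arrays, 60 probes in all, of 21368 genes that could be named. Of the 45, 43 passed the filter on dim probes and were tested among 11072 genes. Alg13 was well above background on 1 of 8 arrays and Fut8 on 0 of 8, so no fold change is given for either.

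Total RNA came from hepatocytes of 4 mice labelled hCNR1_WT (hCNR1+/+, strain label CNRO) and 4 labelled hCNR1_cKO (hCNR1-/-, strain label CNRO Alb-Cre), with 1 one-colour Agilent array per mouse. All were males of 12 to 14 weeks on the standard diet, and the labels name no treatment. The hCNR1-/- mice carry Cre recombinase under the albumin promoter, which is active in hepatocytes, together with floxed CNR1, and the controls were littermates. Because Alb-Cre is named only in the hCNR1-/- strain label, the presence of Cre and the loss of the receptor cannot be told apart. The question was how hepatocyte gene expression differs between the genotypes.

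In N-glycosylation a branched glycan is built stepwise on the lipid dolichol in the membrane of the endoplasmic reticulum (ER), first on the cytosolic face and then in the lumen. Mannose reaches the pathway as GDP-mannose and as dolichol-phosphate-mannose. The oligosaccharyltransferase (OST) moves the finished glycan as a block onto asparagine residues of new proteins, and glucosidases, a folding sensor and Golgi enzymes then trim and rebuild it. Hepatocytes use the pathway heavily because most proteins they secrete into plasma, though not albumin, are N-glycoproteins.

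The labels could be checked only in part. The single Cnr1 probe reached a level well above background on 0 of the 8 arrays, so it does not check the genotype. All 12 hepatocyte markers were well above background on all arrays, with a median log2 fold change of -0.12. They ran from -1.81 for Pck1 and -1.14 for Ass1 to 0.56 for Serpina1c. Of the 12, 7 were lower, and 0 passed an adjusted p of 0.05 (limma). Of 12 Kupffer cell and macrophage markers 10 were tested, all 10 were lower in hCNR1-/- hepatocytes (median log2 fold change -0.98), and 2 of them passed an adjusted p of 0.05. The log2 summed level of the 10 tested markers ran from 6.42 to 7.40 on hCNR1+/+ arrays and from 5.69 to 6.14 on hCNR1-/- arrays. The Kupffer cell marker Timd4 was above background on no array. Other cell types had no marker past that threshold. Whether fewer macrophages or less RNA per macrophage lay behind this cannot be told apart in bulk RNA, and its part in the values of the glycosylation genes was not tested. The genotypes occupied separate rows of a single slide, and any effect of the row cannot be told apart from that of the genotype. The dimmest array was hCNR1-/- replicate 4, with 28.6% of spots well above background against 35.0% to 42.3% on the others. Values without it are given for members where leaving it out ends a call or turns a direction, and for some other genes.

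Dpm3, a small subunit of dolichol-phosphate-mannose synthase, was the single member with an adjusted p below 0.05 (2.57-fold higher in hCNR1-/-). Uggt1, the ER folding sensor, was 2.07-fold higher and Magt1, an oxidoreductase subunit of the OST, was 2.01-fold lower, both past a fold of 2 with an unadjusted p below 0.05 but not past the adjusted threshold. The other 40 tested members lay within smaller or less certain differences, and the whole list lay close to all genes on the array.

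The 250 bases before the transcription start of these 3 genes are shown because they are the members past a threshold. That of Alg12, a mannosyltransferase of the ER lumen, is shown because it alone among the members' windows held a whole ER stress response element. The sequences are RefSeq's, of build GRCm38.p6, each written 5′ to 3′ on the strand of its gene, at chr3:89266211-89266460 (plus strand) for Dpm3, chr1:36244303-36244552 (minus strand) for Uggt1, chrX:106011803-106012052 (minus strand) for Magt1 and chr15:88819319-88819568 (minus strand) for Alg12. Capitals mark the match to that element (ERSE).
Dpm3: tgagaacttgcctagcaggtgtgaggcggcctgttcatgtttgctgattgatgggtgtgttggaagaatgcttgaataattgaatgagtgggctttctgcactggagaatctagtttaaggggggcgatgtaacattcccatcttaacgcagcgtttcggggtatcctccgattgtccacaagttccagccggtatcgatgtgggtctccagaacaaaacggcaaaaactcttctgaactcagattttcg
Uggt1: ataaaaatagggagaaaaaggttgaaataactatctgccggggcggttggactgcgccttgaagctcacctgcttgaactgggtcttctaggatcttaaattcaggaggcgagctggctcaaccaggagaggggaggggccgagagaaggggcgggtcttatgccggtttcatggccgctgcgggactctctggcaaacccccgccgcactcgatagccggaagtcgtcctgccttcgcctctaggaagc
Magt1: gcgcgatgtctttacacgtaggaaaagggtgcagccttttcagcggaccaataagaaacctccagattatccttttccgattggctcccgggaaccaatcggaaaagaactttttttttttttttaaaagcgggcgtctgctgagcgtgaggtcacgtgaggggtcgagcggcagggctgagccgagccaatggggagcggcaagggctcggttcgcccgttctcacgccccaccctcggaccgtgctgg
Alg12: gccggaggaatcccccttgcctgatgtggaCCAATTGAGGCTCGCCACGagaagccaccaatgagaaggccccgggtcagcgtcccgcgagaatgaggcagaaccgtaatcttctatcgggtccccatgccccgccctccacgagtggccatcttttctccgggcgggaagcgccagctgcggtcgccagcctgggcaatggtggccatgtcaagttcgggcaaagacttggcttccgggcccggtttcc
The ERSE was searched on both strands as CCAAT, 9 bases of any kind and CCACG, ERSE-II as ATTGG, any 1 base and CCACG, and the unfolded protein response element (UPRE) as TGACGTGG. Of the 45 members 39 had a window, and Alg2, Alg11, Dpagt1, Gmppb, Ostc and Tusc3 had none in the table used. The ERSE occurred in 0.113% of all 32851 windows and, among members, in that of Alg12, from 220 to 202 bases before its start. ERSE-II occurred in 0.0304% and UPRE in 0.563% of all windows, and in 0 member windows. The end of the ERSE alone, CCACG, was also searched and occurred in 28.3% of all windows and in 15 of 45 member windows. Counted by gene, these were 31% of all genes with a window and 15 of 39 members. Alg12 was among these members, but not Dpm3, Uggt1 or Magt1. A match describes letters only, and no match says only that these letters are not in this window. Alg12 itself had a log2 fold change of 0.30 ± 0.32 (SE, adjusted p = 0.623 with limma).

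All levels below are log2 signals relative to the 75th percentile of the array, in the order of replicates 1 to 4, and fold changes are hCNR1-/- over hCNR1+/+. A level can be compared between arrays for 1 gene but not between genes, because each probe has its own brightness. Leaving this scaling out lowered every log2 fold change by the same amount, and the median of all 11072 genes was then -0.47.

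Dpm3 rose in hCNR1-/- hepatocytes. Its protein holds the catalytic subunit of dolichol-phosphate-mannose synthase in the ER membrane. The level of Dpm3 was 6.37, 6.59, 6.18 and 5.88 on the hCNR1+/+ arrays and 7.28, 7.63, 7.42 and 8.14 on the hCNR1-/- arrays. The lowest hCNR1-/- array lay above the highest hCNR1+/+ array. The difference was 1.36 ± 0.25 (SE, n = 4 against 4), with an adjusted p of 0.026 (limma). With single arrays left out the log2 fold change of Dpm3 stayed between 1.19 and 1.48. Its adjusted p passed 0.05 without hCNR1+/+ replicate 1 (0.053), 3 (0.101) or 4 (0.054), and without hCNR1-/- replicate 1 (0.056), 2 (0.068) or 3 (0.071), and it was 0.015 without hCNR1-/- replicate 4. Under the other ways of processing its log2 fold change ran from 0.81 to 1.38 and its adjusted p from 0.0022 to 0.817. The 0.81 and the 0.817 both came from leaving out the scaling between arrays. Its adjusted p was also above 0.05 with quantile normalization, median scaling, normexp background correction, the deposited scores, no filter and the replicate number as a block. It stayed below 0.05 with a filter on all 8 arrays, the mean of probes, another variance model and array weights.

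The other subunits of the same synthase did not share that size. Dpm1, the catalytic subunit, read 2.89, 2.30, 2.53 and 2.70 in hCNR1+/+ and 2.11, 2.11, 2.21 and 1.54 in hCNR1-/-. No hCNR1-/- array reached the lowest hCNR1+/+ value, and the log2 fold change was -0.61 ± 0.23 (adjusted p = 0.163, limma). Dpm2, which stabilises the complex, read 5.11, 5.29, 5.18 and 4.98 against 5.90, 5.63, 5.58 and 5.72. Here all hCNR1-/- arrays were the higher ones, by 0.57 ± 0.18 (adjusted p = 0.114). Dpm1 and Dpm2 were chosen for their values on each array after these had been seen, as partners of Dpm3.

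Set against Dpm1 on the same array, which removes the scaling between arrays, Dpm3 stood 3.65 ± 0.47 (SD, n = 4) log2 units higher in hCNR1+/+ and 5.62 ± 0.67 in hCNR1-/-. For Dpm2 minus Dpm1 the values were 2.53 ± 0.36 and 3.71 ± 0.36. In both differences the genotypes did not overlap. The pairs were chosen after the values were seen, so they carry no test, and the size of each difference holds the brightness of both probes, so that the shift between genotypes alone can be read.

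**Figure D1:**
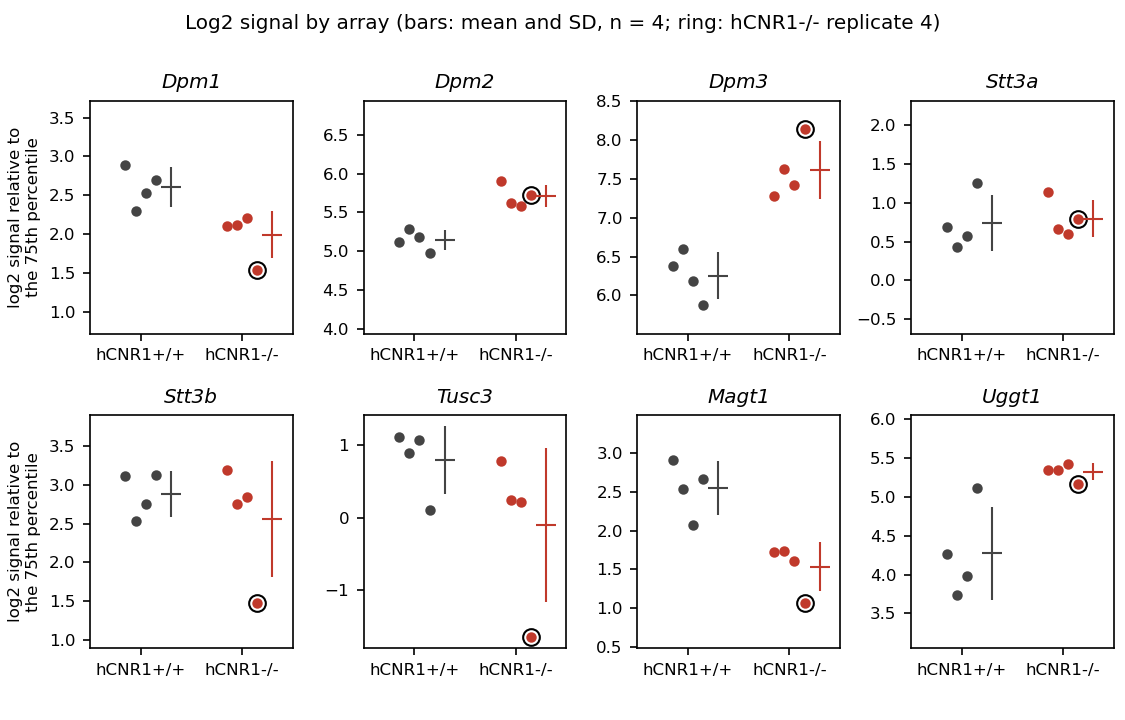
Log2 signal relative to the 75th percentile of each array for 8 members, with 1 point per array, hCNR1+/+ in grey and hCNR1-/- in red, bars for mean and SD (n = 4), and a ring around hCNR1-/- replicate 4. The genotypes do not overlap for Dpm1, Dpm2, Dpm3, Magt1 and Uggt1, and the ringed array is the lowest of its group for Dpm1, Stt3b, Tusc3, Magt1 and Uggt1.

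Earlier in mannose donor supply, 8 of the 9 tested members had a positive fold change (median log2 fold change 0.39), Dpm3 among them, and 2 of 9 without scaling between arrays (Dpm2 and Dpm3). Mpi, which makes mannose 6-phosphate from fructose 6-phosphate, had a log2 fold change of 0.13 ± 0.27, and of 0.34 without hCNR1-/- replicate 4. Mpdu1, needed for the use of dolichol-linked mannose and glucose, had 0.26 ± 0.22.

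The phosphomannomutases Pmm1 and Pmm2 convert mannose 6-phosphate to mannose 1-phosphate. Pmm1 read 6.23, 6.26, 6.46 and 5.79 in hCNR1+/+ and 6.69, 6.44, 6.64 and 7.13 in hCNR1-/-. The groups met at 1 point, where hCNR1+/+ replicate 3 lay above hCNR1-/- replicate 2, and the log2 fold change was 0.54 ± 0.23 (adjusted p = 0.216, limma). Pmm2, the form mutated in the most frequent congenital disorder of glycosylation, read 1.74, 1.75, 1.45 and 1.61 against 2.74, 2.03, 2.09 and 1.90. All hCNR1-/- arrays of Pmm2 were above the hCNR1+/+ arrays, by 0.55 ± 0.23 (adjusted p = 0.205). Without scaling both genes lay at about 0 (-0.014 for Pmm1, -0.0037 for Pmm2), on a scale where the median of all genes was -0.47.

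GDP-mannose itself is made by the pyrophosphorylase Gmppb, with Gmppa as its regulatory partner. Gmppa read 3.74, 3.61, 3.28 and 3.14 in hCNR1+/+ and 3.90, 3.90, 3.64 and 3.89 in hCNR1-/-, a log2 fold change of 0.39 ± 0.21 (adjusted p = 0.309, limma). Only hCNR1-/- replicate 3 fell within the hCNR1+/+ range. Gmppb read 5.49, 5.03, 4.97 and 5.07 against 5.05, 5.48, 5.14 and 5.44, with the groups largely overlapping and a log2 fold change of 0.14 ± 0.21 (adjusted p = 0.736). With quantile normalization Gmppb turned to -0.02.

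Dolichol supply showed smaller differences. Dhdds and Nus1, the subunits of the enzyme that builds the polyprenyl chain, had log2 fold changes of 0.16 ± 0.25 (0.34 without hCNR1-/- replicate 4) and 0.11 ± 0.33. The reductase Srd5a3 had -0.04 ± 0.19 and the recycling phosphatase Dolpp1 0.39 ± 0.29. The kinase Dolk had 0.00 ± 0.20, and -0.03 without hCNR1-/- replicate 4. The adjusted p-values of this group all stayed above 0.05 (limma). On hCNR1-/- replicate 4 Nus1 read 3.999, far below the 5.31 to 5.41 of the other 3, and without that array its log2 fold change was 0.45 (adjusted p = 0.102).

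**Figure D2:**
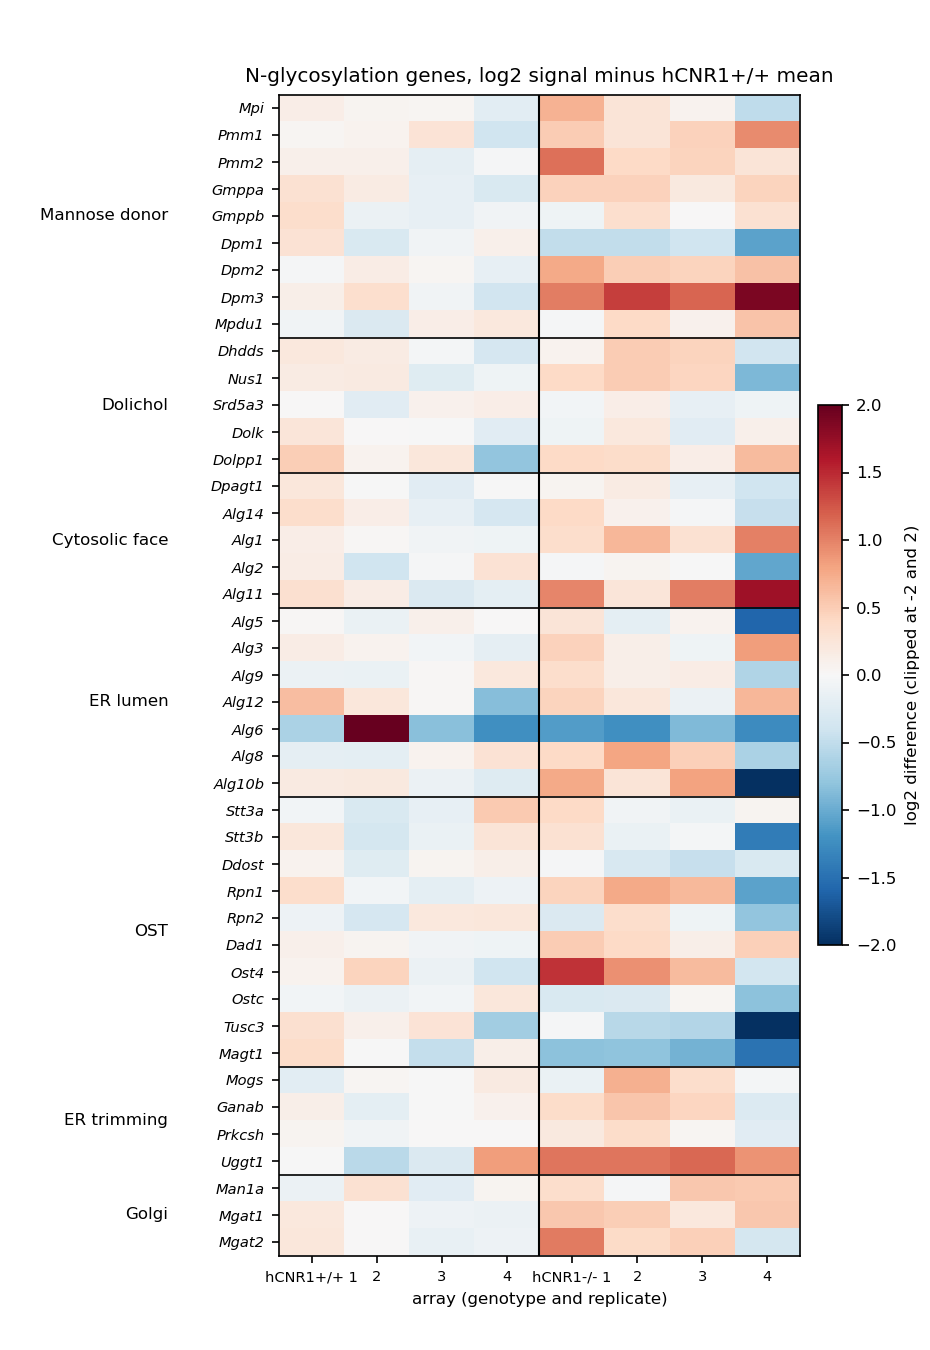
Log2 signal of the 43 tested members (rows, grouped by role) on the 8 arrays (columns), each minus the mean of the 4 hCNR1+/+ arrays of that gene, red for higher and blue for lower, clipped at -2 and 2. Dpm3 and Uggt1 are red on all hCNR1-/- arrays, Magt1 is blue on all 4, and Alg6 is high on hCNR1+/+ replicate 2 alone.

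On the cytosolic face the glycan is begun by Dpagt1, which adds the first sugar and is the target of tunicamycin. Dpagt1 read 5.91, 5.67, 5.46 and 5.67 in hCNR1+/+ and 5.73, 5.85, 5.51 and 5.28 in hCNR1-/-. The ranges overlapped, with a log2 fold change of -0.08 ± 0.21 (adjusted p = 0.848, limma) that turned to 0.02 without hCNR1-/- replicate 4. Alg14, which anchors the second transferase, had -0.00 ± 0.25, and 0.15 without that array. Its catalytic partner Alg13 was well above background on hCNR1-/- replicate 3 alone.

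The mannosyltransferases that follow on this face differed among themselves. Alg1, which adds the first mannose, read 4.75, 4.64, 4.54 and 4.53 in hCNR1+/+ and 4.96, 5.29, 4.92 and 5.63 in hCNR1-/-, without overlap, and had a log2 fold change of 0.58 ± 0.22 (adjusted p = 0.159, limma). Alg2, the next in order, had -0.26 ± 0.29 and 0.00 without hCNR1-/- replicate 4, where it read 2.44 against 3.45 to 3.52 on the other 3. Alg11, the last on this face, read 1.02, 0.85, 0.42 and 0.51 against 1.67, 0.95, 1.72 and 2.39. Only hCNR1-/- replicate 2 lay inside the hCNR1+/+ range of Alg11, and the log2 fold change was 0.98 ± 0.31 (adjusted p = 0.106), just under a fold of 2. Without hCNR1-/- replicate 4 the log2 fold change of Alg11 was 0.75. Alg1 and Alg11 were given by array after their values had been seen.

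In the ER lumen 0 of 7 members passed either threshold in limma, with 4 positive and 3 negative (0 positive without scaling). Alg5, which makes dolichol-phosphate-glucose, had a log2 fold change of -0.37 ± 0.37, and 0.04 without hCNR1-/- replicate 4. The lumenal mannosyltransferases Alg3, Alg9 and Alg12 had 0.33 ± 0.24, 0.00 ± 0.24 and 0.30 ± 0.32, and without that array 0.16, 0.20 and 0.18. Of the glucosyltransferases, Alg8 had 0.26 ± 0.31 and Alg10b -0.18 ± 0.66, both moved by hCNR1-/- replicate 4, without which they read 0.56 and 0.61 (adjusted p = 0.083 for each). Alg6, the first of the 3, had the lowest fold change of all members, -1.12 ± 0.74 (adjusted p = 0.418). That value rested on 1 array: Alg6 read 2.49 on hCNR1+/+ replicate 2 and between -1.46 and -0.84 on the other 7, and without that array the log2 fold change was -0.22.

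**Figure D3:**
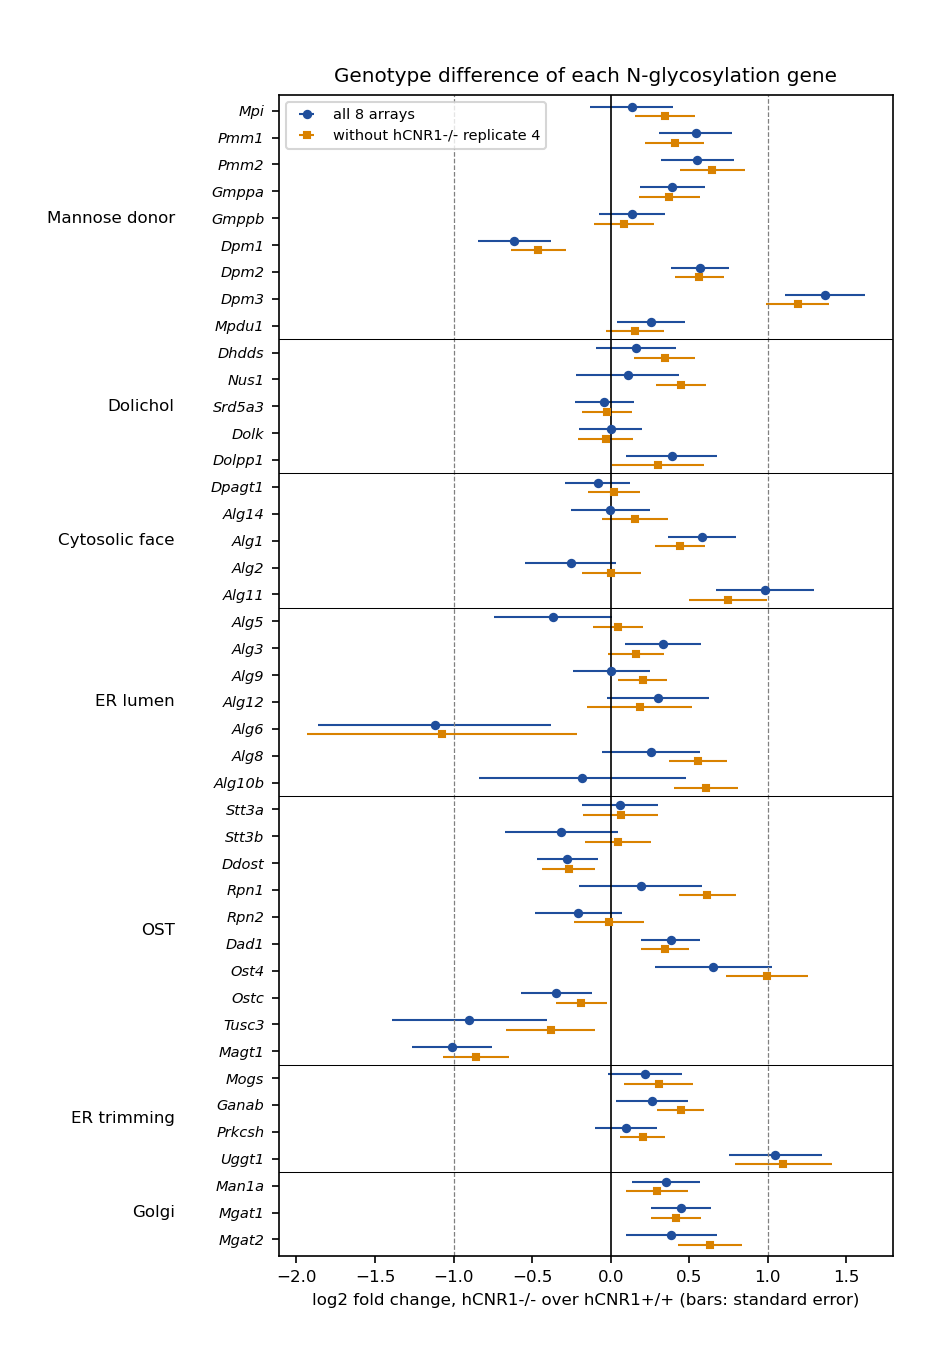
Log2 fold change of hCNR1-/- over hCNR1+/+ with its standard error for the 43 tested members by role, from all 8 arrays (blue circles) and without hCNR1-/- replicate 4 (orange squares), with dashed lines at a fold of 2. Dpm3 and Uggt1 lie beyond the upper line in both fits, Magt1 moves from -1.01 to -0.85, and Nus1, Alg10b, Rpn1 and Ost4 move upward without that array.

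The OST had 4 positive and 6 negative members (1 positive without scaling), with a median log2 fold change of -0.24 that became 0.02 without hCNR1-/- replicate 4. Its catalytic subunit Stt3a, which acts while the protein enters the ER, read 0.69, 0.43, 0.57 and 1.25 in hCNR1+/+ and 1.13, 0.66, 0.60 and 0.79 in hCNR1-/-. Stt3b, which also acts after translation, read 3.11, 2.53, 2.75 and 3.13 against 3.19, 2.75, 2.84 and 1.48. The genotypes overlapped for both, and hCNR1-/- replicate 4 alone lay far below the rest for Stt3b. The log2 fold change was 0.06 ± 0.24 for Stt3a (adjusted p = 0.908, limma) and -0.31 ± 0.36 for Stt3b (0.646), which turned to 0.05 without that array.

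Magt1 and Tusc3 encode alternative oxidoreductase subunits of the Stt3b complex. Magt1 read 2.91, 2.53, 2.07 and 2.67 in hCNR1+/+ and 1.73, 1.74, 1.60 and 1.07 in hCNR1-/-. All 4 hCNR1-/- values were below all hCNR1+/+ values, by a log2 fold change of -1.01 ± 0.25 (adjusted p = 0.055, limma). Leaving out hCNR1-/- replicate 4 gave -0.85, under a fold of 2, with an adjusted p of 0.037. It was likewise under a fold of 2 without hCNR1+/+ replicate 1 (-0.89) or 4 (-0.97), with normexp background correction (-0.87), with the mean of the probes (-0.82) and with array weights (-0.71). The second tested probe of Magt1 had a log2 fold change of -0.62 ± 0.23.

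Tusc3 read 1.12, 0.90, 1.07 and 0.11 in hCNR1+/+ and 0.78, 0.25, 0.22 and -1.65 in hCNR1-/-. The values were mostly lower in hCNR1-/- but overlapped, and hCNR1-/- replicate 4 lay lowest, so that the log2 fold change of -0.90 ± 0.49 (adjusted p = 0.322, limma) became -0.38 without it.

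Among the subunits shared by both OST complexes, Ddost read 5.06, 4.75, 5.04 and 5.11 in hCNR1+/+ and 4.97, 4.66, 4.54 and 4.68 in hCNR1-/-. The groups overlapped through hCNR1-/- replicate 1, and the log2 fold change was -0.28 ± 0.19 (adjusted p = 0.441, limma). Dad1, named for a defender against cell death, read 7.13, 7.08, 6.96 and 6.95 against 7.54, 7.44, 7.16 and 7.52. Its genotypes did not overlap, at a small difference of 0.38 ± 0.19 (adjusted p = 0.270), and it was given by array after its values had been seen. The ribophorins Rpn1 and Rpn2, large subunits, had 0.19 ± 0.39 and -0.21 ± 0.27. Rpn2 moved to -0.01 without hCNR1-/- replicate 4. Rpn1 read 5.82 on that array against 7.34 to 7.65 on the other 3, and without it had 0.62 (adjusted p = 0.061).

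The small subunits went apart in the sign of their difference. Ost4 had a log2 fold change of 0.65 ± 0.37 (adjusted p = 0.345, limma) and of 0.99 without hCNR1-/- replicate 4 (adjusted p = 0.045, under a fold of 2), where the array left out read 4.89 against 5.90 to 6.70. Ostc, which belongs to the Stt3a complex, had -0.35 ± 0.23 (adjusted p = 0.415), and -0.19 without that array.

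Another 4 comparisons set related members against each other. They were made on the same array, so that scaling plays no part, with a two-sided exact permutation test over the 70 assignments of arrays whose smallest p is 0.0286. The difference Stt3b minus Stt3a was 2.15 ± 0.23 (SD, n = 4) in hCNR1+/+ and 1.77 ± 0.72 in hCNR1-/- (exact permutation p = 0.457). Tusc3 minus Magt1 was -1.75 ± 0.64 and -1.64 ± 0.76 (exact permutation p = 0.771). Pmm2 minus Pmm1 was -4.55 ± 0.34 and -4.54 ± 0.53 (exact permutation p = 0.971), and Gmppa minus Gmppb was -1.70 ± 0.21 and -1.45 ± 0.20 (exact permutation p = 0.143). After Benjamini-Hochberg adjustment over the 4 pairs the lowest p was 0.571. None of the 4 passed the test, which does not show that the pairs kept their balance.

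Trimming after transfer had a positive log2 fold change in all 4 members, which turned negative for 3 of them without scaling (Mogs -0.34, Ganab -0.29 and Prkcsh -0.46). Uggt1, which adds glucose back to glycoproteins that have not folded, read 4.26, 3.74, 3.98 and 5.12 in hCNR1+/+ and 5.35, 5.35, 5.42 and 5.17 in hCNR1-/-. The hCNR1-/- arrays lay close together and above all hCNR1+/+ arrays, though hCNR1+/+ replicate 4 came near them. The log2 fold change was 1.05 ± 0.29 (adjusted p = 0.076, limma). It was 1.33 with an adjusted p of 0.028 without hCNR1+/+ replicate 4, but under a fold of 2 without hCNR1+/+ replicate 2 (0.87, adjusted p = 0.179) or 3 (0.95, adjusted p = 0.215). It was also under a fold of 2 with quantile normalization (0.91), normexp background correction (0.93) and the deposited scores (0.99), and 0.49 without scaling. The second probe of Uggt1 had 1.32 ± 0.29, with an adjusted p of 0.025 in the limma fit of single probes. The glucosidases that remove glucose differed less: Mogs had 0.22 ± 0.24, and the Ganab and Prkcsh subunits of glucosidase II had 0.26 ± 0.23 and 0.10 ± 0.20. Without hCNR1-/- replicate 4 these were 0.31 for Mogs, 0.44 for Ganab and 0.20 for Prkcsh.

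In the Golgi, Mgat1 adds the N-acetylglucosamine that opens the way to complex glycans. It read 7.48, 7.27, 7.16 and 7.15 in hCNR1+/+ and 7.81, 7.76, 7.48 and 7.80 in hCNR1-/-. The groups touched between hCNR1+/+ replicate 1 and hCNR1-/- replicate 3, and the log2 fold change was 0.45 ± 0.19 (adjusted p = 0.211, limma), or -0.11 without scaling. Mgat2, the next transferase, had 0.39 ± 0.29 (0.63 without hCNR1-/- replicate 4, adjusted p = 0.074 in limma) and the mannosidase Man1a 0.35 ± 0.22. The core fucosyltransferase Fut8 was among the members not tested.

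Read against all genes, the pathway did not stand out. Members lower by a fold above 2 with an unadjusted p below 0.05 were 1 of 43 (Magt1), against 3.75% of all tested genes, and members higher by that rule were 2 of 43 (Dpm3 and Uggt1), against 4.78%. At an adjusted p below 0.05 (limma) 0 of 43 were lower, against 1.3%, and 1 of 43 was higher (Dpm3), against 2.94%. With arrays weighted by their quality in limma the counts became 1 lower and 11 higher members, of 646 lower and 2176 higher genes. An unadjusted p below 0.05 was met by 10 of 43 members (23.3%) and by 21.6% of all genes. Genotypes did not overlap for 2 members with lower hCNR1-/- values (Dpm1 and Magt1, 5.04% of all genes) and for 6 with higher values (Pmm2, Dpm2, Dpm3, Alg1, Dad1 and Uggt1, 12.7% of all genes). Without scaling the fold changes of Pmm2 (-0.0037) and Dad1 (-0.17) were below 0, and those of Dpm2 (0.01) and Alg1 (0.03) close to it.

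The median log2 fold change of the 43 members was 0.16, against 0.08 for all 11072 genes, and 67.4% of members (29 of 43) were positive, against 56.6% of all genes. Without scaling 6 of 43 members were positive, on a scale where the median of all genes was -0.47. A difference within 0.5 log2 units of 0 was found for 72.1% of members and 64.6% of all genes. Without scaling between arrays the medians moved to -0.39 and -0.47. This scaling moves all fold changes by the same amount, so the gap of 0.08 was the same on both scales by construction. The gap was 0.04 with quantile normalization, 0.03 with array weights, 0.13 with the deposited scores and -0.07 without the filter.

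**Figure D4:**
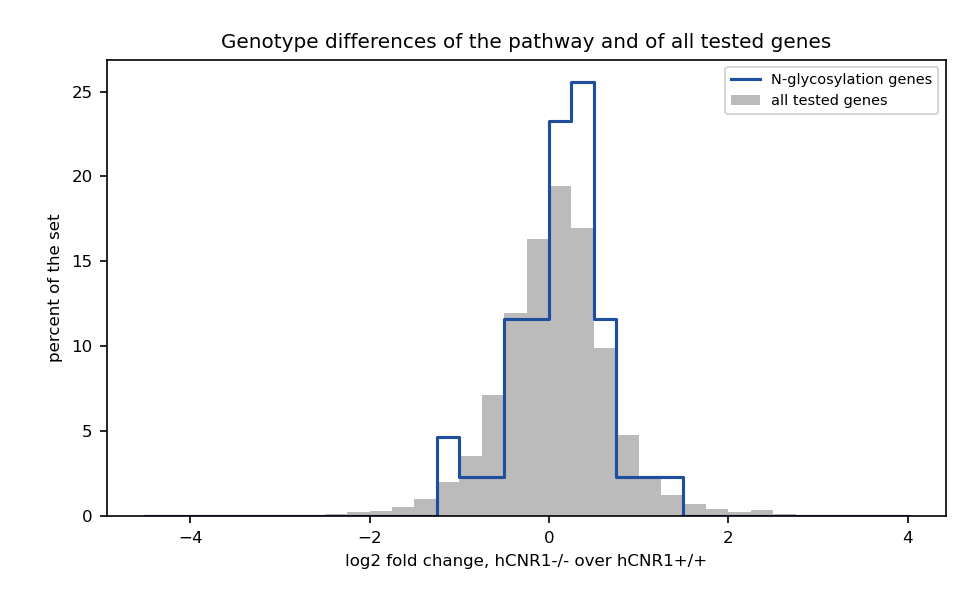
Percent of the 43 tested members (blue line) and of all 11072 tested genes (grey bars) in bins of the log2 fold change of hCNR1-/- over hCNR1+/+. The members lie within the range of all genes, from -1.12 to 1.36, with a median of 0.16 against 0.08.

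The counts moved when hCNR1-/- replicate 4, the dimmest array, was left out. Members past a fold of 2 with an unadjusted p below 0.05 were then 0 lower, against 2.97% of all genes, and 2 higher (Dpm3 and Uggt1), against 5.23%. At an adjusted p below 0.05 (limma) 1 member was lower (Magt1), against 2.92%, and 2 were higher (Dpm3 and Ost4), against 10.1%. With that array left out 34 of 43 members were positive, with a median of 0.29 against 0.17 for all genes. The array was the lowest of its group for 24 of the 43 members, and for 53.3% of all tested genes. The part of its low signal in these differences was not tested.

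Beyond the 45 genes, 57 others tied to the pathway were taken from 4 lists by their function, and 48 of them were tested. At an adjusted p below 0.05 (limma) 1 was higher (2.08%), against 2.94% of all tested genes, and 0 were lower, against 1.3%. That gene was Canx, the lectin chaperone calnexin, which binds the glycan that Uggt1 reglucosylates. Canx read 3.06, 2.72, 2.72 and 3.03 in hCNR1+/+ and 3.81, 3.60, 4.05 and 3.81 in hCNR1-/-. The groups lay well apart, with a log2 fold change of 0.94 ± 0.20 (adjusted p = 0.036), while leaving out single arrays gave adjusted p-values from 0.019 to 0.129, below 0.05 in limma only without hCNR1-/- replicate 4, and other ways of processing from 0.0029 to 0.878.

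By a fold above 2 with an unadjusted p below 0.05, 1 of the 48 was higher and 1 was lower (2.08% each). Of all tested genes 4.78% were higher and 3.75% lower by that rule. The higher was Cmas, which activates sialic acid as CMP-sialic acid, at 2.58, 2.64, 2.80 and 3.096 in hCNR1+/+ and 3.80, 3.24, 3.91 and 4.49 in hCNR1-/-. Its groups did not overlap, and its log2 fold change was 1.08 ± 0.28 (adjusted p = 0.061, limma). Without hCNR1-/- replicate 4 it was 0.87, under a fold of 2 (adjusted p = 0.038), and without scaling 0.53. The lower was St6gal1, which caps N-glycans with sialic acid, at 2.62, 2.47, 3.19 and 4.38 against 2.10, 2.41, 2.25 and 0.21. Its groups did not overlap either, but the outer arrays, hCNR1+/+ replicate 4 and hCNR1-/- replicate 4, set much of the log2 fold change of -1.42 ± 0.56 (adjusted p = 0.179), which was -1.02 without the first and -0.91 without the second.

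By list, 8 of 10 tested genes of the further OST subunits, flippase and translocon were positive (median log2 fold change 0.47, and 4 positive without scaling), as were 8 of 12 lectin chaperones and degradation genes (median 0.18, and 2 without scaling). Of the 18 genes of nucleotide sugar supply 7 were positive (median -0.09, and 2 without scaling), and of 8 Golgi branching and capping genes 4 (median 0.03, and 2 without scaling). Without hCNR1-/- replicate 4 the first of these had 11 positive and a median of 0.07, and the second a median of -0.03. Without hCNR1-/- replicate 4, 8 of the 48 had an adjusted p below 0.05 in limma, all higher, against 10.1% of all genes in that direction. They were the OST subunit Tmem258, the translocon genes Ssr4 and Sec61b, Canx, the cargo receptor Lman1, Nans and Cmas of sialic acid synthesis, and the Golgi mannosidase Man2a1.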

How the data were processed

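RNA of isolated hepatocytes was labelled with Cy3 from 200 ng per sample and hybridised to 1-colour Agilent arrays. The authors deposited the background-corrected intensity of each spot as Feature Extraction wrote it, with no scaling between arrays, and a score per spot that lay within 0.005 of the z-score of log intensity within its array. The methods name no scaling or test for the arrays. The array design names build mm9, and genes were named through RefSeq of GRCm38.p6 by accession, giving 28331 of 55681 probes a name.

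Log2 intensities were set relative to the 75th percentile of their own array (59305 non-control spots). Outlier spots were left out and spots of a probe averaged. Probes had to be well above background on 4 or more of the 8 arrays, and the brightest represented its gene. Genotypes, taken from the labels, were compared by moderated linear models in limma (version 3.58.1, R version 4.3.3), two-sided, with Benjamini-Hochberg adjustment over 11072 genes. The fit was tested on simulated data. A fold of 2 with an unadjusted p below 0.05 follows the study. The labels and the design text give 4 mice per genotype, each with its own array, whereas the study's legend for the array data states n = 3, without saying which, so all 8 were used.

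The members and lists were chosen with earlier results of these data known. Values on each array were printed for members past a threshold, for Dpagt1, Stt3a, Stt3b, Ddost and Mgat1, for both genes of each pair, and for others where so stated. Alternatives were other scalings, normexp (offset 50, on the median spot signal), the deposited scores, other filters, the mean of probes, array weights, other variance models, the replicate number as a block and each array left out. The number of arrays limits the precision.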

Additional observations from a re-analysis of the deposited data

Results flagged for a closer look

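In 8 of 86 sets of 4 arrays (43 members in each genotype) 1 array lay far from the other 3 by Dixon's gap ratio. The nominal rate is about 1 of 20 sets, but the sets share the same 8 arrays and are not independent. The share over all genes was not counted, so the 8 sets are not read as an excess among members. For 53.3% of all tested genes hCNR1-/- replicate 4 was the lowest of its group. On hCNR1-/- replicate 4 this held for Dpm1 (1.54 against 2.11 to 2.21), Nus1 (3.999 against 5.31 to 5.41), Alg2 (2.44 against 3.45 to 3.52), Alg10b (-2.99 against -0.20 to 0.35) and Rpn1 (5.82 against 7.34 to 7.65). On hCNR1-/- replicate 3 it held for Gmppa (3.64 against 3.89 to 3.90) and Mgat1 (7.48 against 7.76 to 7.81). On hCNR1+/+ replicate 2 it held for Alg6 (2.49 against -1.43 to -0.84). All values are log2 signals relative to the 75th percentile of the array.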

How the results depend on the processing

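In the main fit the members past a fold of 2 with an unadjusted p below 0.05 were 1 lower and 2 higher, and at an adjusted p below 0.05 they were 0 lower and 1 higher. The fold count was 0 lower with median scaling, normexp, the mean of probes and array weights, 1 higher with quantile normalization, normexp and the deposited scores, and 0 higher without scaling. Over all tested genes the fold counts of the settings ran from 107 to 630 lower and from 87 to 687 higher. The adjusted count was 0 higher with quantile normalization, median scaling, no scaling, normexp, the deposited scores or no filter, 2 higher with the mean of probes, 11 higher and 1 lower with array weights, and 1 lower with a filter on all 8 arrays. Of the related genes past the adjusted p, 1 was higher in the main fit. It was 0 with quantile normalization, median scaling, no scaling, normexp, the deposited scores or no filter. With array weights 12 were higher and 1 was lower. The adjusted counts over all tested genes moved too. Higher genes were 325 in the main fit, 296 with the mean of probes and 2176 with array weights. They were 131 with quantile normalization, 25 with median scaling and 1 with no scaling. With normexp they were 28, with the deposited scores 30 and with no filter 8 of 21360. Lower genes were 144 in the main fit, 646 with array weights and 54 of 8371 with a filter on all 8 arrays. Leaving out 1 array gave 0 to 2 lower and 1 to 3 higher members by fold, 0 to 1 lower and 0 to 2 higher by adjusted p, and 0 to 8 higher related genes. Over all 11072 genes the adjusted counts then ran from 25 to 323 lower and from 13 to 1121 higher. The members' median was 0.16, and -0.39 without scaling. With the replicate number as a replicate block the adjusted counts were 0 higher for members and 0 for related genes. In that fit 0 of all 11072 tested genes passed the adjusted p in either direction, so these counts are not particular to the lists. The fold counts of members stayed at 1 and 2. The deviations of same-numbered arrays from their group means had correlations of 0.21, -0.16, -0.05 and 0.02. With 1 correlation per replicate number, these cannot show whether the numbers pair the mice.

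Among single genes, Stt3a (-0.49), Mgat1 (-0.11), Pmm1 (-0.014), Pmm2 (-0.0037), Gmppa (-0.16) and Gmppb (-0.42) turned negative without scaling, Gmppb with quantile normalization (-0.020) and Stt3a with the scores (-0.069). With array weights Dpagt1 (0.076) and Stt3b (0.094) turned positive. With arrays left out Stt3a ran from -0.052 to 0.23, Dpagt1 from -0.17 to 0.020 and Stt3b from -0.52 to 0.047. Tusc3 minus Magt1, 0.11 in the main fit, was -0.084 with the mean of probes and ran from -0.16 to 0.47 with arrays left out. Pmm2 minus Pmm1, 0.01 in the main fit, was -0.021 with normexp and ran from -0.19 to 0.24. Of the 30 members given only in part, 17 changed sign without scaling and 0 to 6 under any other setting. The related counts were added to the alternatives after the data had been seen. Median scaling and no scaling each move all log2 fold changes by a common amount. Without scaling Dpm3 went from 1.36 to 0.81 and Magt1 from -1.01 to -1.57. The cause of the other changes was not tested, and signal over background limits dim genes: Alg13 and Fut8 could not be tested.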

Other observations

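Of the 15 members with more than 1 probe, 9 had more than 1 tested probe, and 8 of these 9 had a single direction over their probes. The exception was Mpdu1, at 0.26 and -0.01 on the log2 scale. For Stt3b the second probe had -0.58, and for Pmm1 it had 0.18.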
